A study of Macaca fascicularis with 12 samples.

Results

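Iliac arteries carrying large atherosclerotic plaques were compared with iliac arteries carrying medium plaques, to see what differed late in the growth of the plaque and which functions stayed level. The sample titles give the plaque size, and by that rule 3 large and 5 medium plaque arteries were taken, 8 of the 12 arteries of the series. Plaque area was 0.61, 0.873 and 1.003 mm2 in the large group and 0.30, 0.391, 0.448, 0.516 and 0.542 mm2 in the medium group, so the areas did not overlap. The remaining 4 arteries, with small or no plaque, entered only the estimate of the spread and a few values set side by side. All 12 animals were female cynomolgus monkeys (Macaca fascicularis) older than 20 years, listed as untreated, with ovaries removed (4 years by the label) and a diet high in fat (8 years by the label), so both groups share the loss of the ovaries and the diet. Each animal gave 1 biopsy and 1 array, and replicates were therefore separate animals. The biopsy was minced whole, so plaque and artery wall were measured together, and the monkey RNA was read with arrays of human probes. With 3 and 5 animals and 1 artery site, the groups describe these animals at 1 time and not the course of a plaque in 1 animal.

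As background, an atherosclerotic plaque begins when lipoproteins lodge in the inner wall of an artery and macrophages take up their cholesterol and turn into foam cells. Smooth muscle cells of the wall migrate in, divide, lose contractile proteins and make collagen and proteoglycans that form a fibrous cap. In later plaques cells die, cholesterol and calcium collect in a core, and the balance of matrix synthesis and protease activity sets how firm the cap is.

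Values below are log2 of the deposited intensity, on which the median probe of each array lies near 0 and 1 unit is a 2-fold difference. A difference is large minus medium, with its standard error (SE) or 95% interval from the fit of all 12 arrays by limma, and p-values are adjusted over all probes. The large arrays correlated with each other at a median r of 0.967 across probes, the medium arrays at 0.967, and large with medium arrays at 0.965 over 15 pairs. Probes are not independent, so these r describe the arrays and carry no p. In a principal component analysis of the 8 arrays, the leading axis held 25.4% of the variance and placed large replicates 1 and 2 at -62.2 and -53.8, medium replicates 1 and 2 at -34.3 and -29.2, large replicate 3 at 6.66, and medium replicates 3 to 5 between 41.4 and 87.7. It therefore did not separate the groups. The tissue carried the markers of an artery: the summed linear intensity of 13 contractile smooth muscle markers was 1209 to 2139 in large and 905 to 1892 in medium arteries, and that of 14 endothelial markers 97.4 to 130.0 and 76.8 to 126.1. No such marker lay at the floor on every array of a group. Between 5.20% and 6.49% of the values of each of these 8 arrays lay under the floor of 0.111 that was set before taking logs.

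No probe passed an adjusted p of 0.05 in limma, so 0 of 53877 probes (0%) were called between large and medium plaque arteries. At an unadjusted p under 0.05 there were 2713 probes (5.04%), of which 1514 were higher (2.81%) and 1199 lower (2.23%) in large plaques, against 2693.85 that a test at this level gives by chance. This count depended on which small plaque arrays entered the fit. It was 4055 on the 8 large and medium arrays alone (2183 higher, 1872 lower) and 3376 without small replicate 1. The values of the groups did not overlap for 2945 probes (5.47%), 1365 higher (2.53%) and 1580 lower (2.93%). The chance number of 2693.85 belongs to the p count, and none was worked out for overlap. By comparison, 1693 probes (3.14%) were called in medium against small plaques and 617 (1.15%) in large against small, comparisons that share the medium or the large arrays with this one. The standard error of a difference had a median of 0.29 log2 units over all probes and 0.23 over the genes whose mean lay above the median of the arrays. The smallest adjusted p, 0.0628, belonged to C6orf118, a dim probe listed at the floor in all 5 medium arteries and between -1.95 and -1.94 in the large ones, so its measured difference of 1.22 rests on the floor. The next, 0.139, belonged to TRHR, the receptor of thyrotropin-releasing hormone, which was as dim. One probe without a gene name differed most, by 4.94 (SE 1.43), reading 4.37, 4.18 and 2.26 in large and between -1.87 and -0.88 in medium plaques, with an adjusted p of 0.826. Its mean in small plaques, 0.84, lay between those of medium and large plaques. Fitted on the 8 large and medium arrays alone, limma called 4 probes, the unnamed one, C6orf118, another unnamed probe and SLC66A1, an amino acid transporter of the lysosome (difference 1.61, adjusted p = 0.0473). It called 3 probes without small replicate 1, and 1 when large replicate 2, medium replicate 1 or small replicate 3 was left out.

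**Figure D1:**
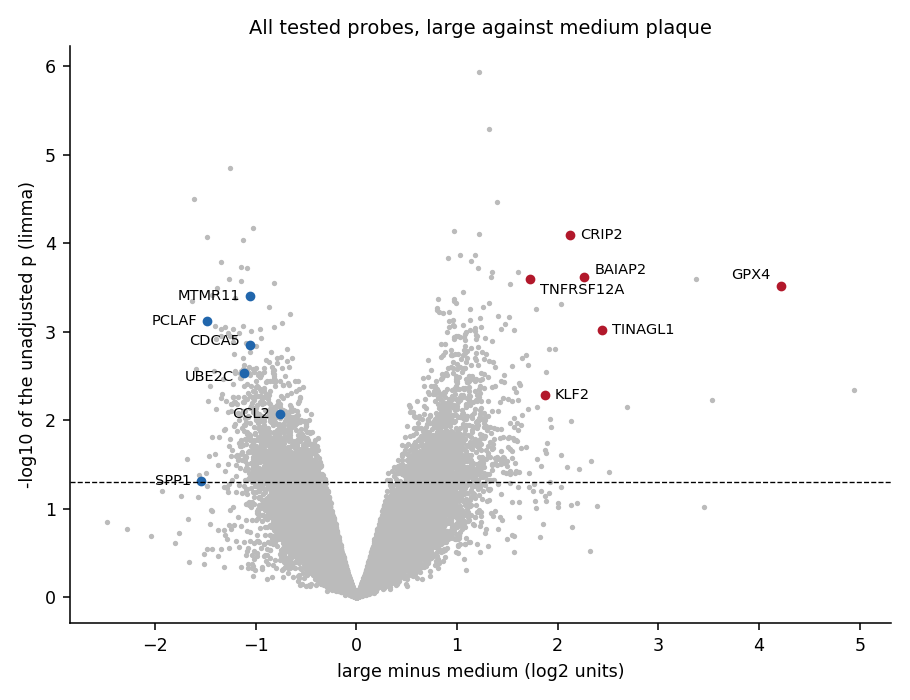
Each point is 1 of the 53877 tested probes, with the difference of large minus medium plaque arteries in log2 units across and -log10 of the unadjusted limma p upward; the dashed line marks the unadjusted threshold, red points are named genes higher and blue points named genes lower in large plaques. No point reached an adjusted p of 0.05, and GPX4 lies farthest right among the labelled genes at 4.22.

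At the level of genes, 18080 genes had 1 probe with values on every array, and 909 of them (5.03%) lay at an unadjusted p under 0.05, 499 higher (2.76%) and 410 lower (2.27%) in large plaques. The values of the groups did not overlap for 1037 genes (5.74%), 447 higher (2.47%) and 590 lower (3.26%), and 8529 genes (47.2%) differed upward. These shares are the background against which the counts of each gene group below are read. To say which functions were level, a gene was called bounded where the whole 95% interval of its difference lay between -1 and 1, that is, within 2-fold either way. This held for 11604 genes (64.2%), and for 8537 of 11222 brighter genes (76.1%). A gene outside this bound was measured too loosely or differed more, and an adjusted p above 0.05 does not show that its level was equal.

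Among the brighter genes, CRIP2, a LIM domain protein found in vascular tissue, had the smallest p of those higher in large plaques. It read 2.28, 2.44 and 3.06 in the large plaque arteries and 1.11, 0.80, 0.46, -0.06 and 0.04 in the medium plaque arteries. All 3 large arteries lay above all 5 medium ones, with medium replicate 1 the nearest. The difference was 2.12 log2 units (95% interval 1.33 to 2.92, adjusted p = 0.448), a 4.36-fold ratio, and therefore missed the threshold over all probes. TNFRSF12A, also called Fn14, is the receptor of the cytokine TWEAK and drives migration and inflammatory signalling in vascular cells. It read 4.08, 4.61 and 4.23 in the large plaque arteries and 3.37, 2.53, 2.81, 2.12 and 2.05 in the medium plaque arteries. All 3 large arteries lay above all 5 medium ones, with a mean difference of 1.73 log2 units (95% interval 0.99 to 2.47, adjusted p = 0.529), and a second probe for the gene differed by 2.04 (SE 0.43). The mean of the first probe was 3.29 in small, 2.58 in medium and 4.30 in large plaques. That of the second was 3.04, 2.19 and 4.22. Medium plaques were therefore the lowest group, and the gene did not rise steadily with plaque size. GPX4, the enzyme that reduces lipid peroxides in membranes, differed most of the genes named here and most unevenly, with 5.02, 0.01 and 3.90 in the large plaque arteries and -1.23, -1.46, -0.76, -1.64 and -1.09 in the medium plaque arteries. Large replicate 2 lay above every medium artery but far below the other 2 large arteries. The difference was 4.22 log2 units (95% interval 2.38 to 6.06, adjusted p = 0.547); without large replicate 2 it was 5.70 with an adjusted p of 0.00231, the only one of the 136 genes considered that limma called under any alternative.

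Other genes high in the large plaques were spread over signalling, ubiquitin transfer and the basement membrane. TINAGL1, a protein of the extracellular matrix, read 0.86, 1.59 and 1.88 in large and 0.24, -0.12, -1.41, -1.62 and -2.05 in medium, a difference of 2.44 (SE 0.56, adjusted p = 0.658). BAIAP2, an adaptor that links the membrane to actin, read 0.46, -1.05 and -0.29 in large and -1.48, -3.17, -2.88, -3.17 and -2.10 in medium, where 2 medium values sit at the floor, and differed by 2.26 (SE 0.44, adjusted p = 0.529). Both genes kept the groups apart, with medium replicates 1 and 2 nearest to the large plaques for TINAGL1. CDC34, which loads ubiquitin on cell cycle regulators, read 1.32, 1.17 and 1.39 in large and 0.26, -0.19, -0.15, -0.48 and -1.39 in medium and differed by 1.68 (SE 0.42, adjusted p = 0.752). Medium replicate 5 was the lowest of these. Medium replicates 4 and 5 were the lowest medium arteries for CDC34, TINAGL1, CRIP2, TNFRSF12A and the reference gene GAPDH, though not for GPX4 or BAIAP2. Whether these genes follow a shared order of the arrays was not tested. PER1, a repressor of the circadian clock, differed by 1.04 (SE 0.27, adjusted p = 0.766), ADISSP, a secreted protein of adipose tissue, by 1.35 (SE 0.32, adjusted p = 0.677), and MIIP, an inhibitor of cell migration, by 1.19 (SE 0.28, adjusted p = 0.658). INPP5J, an inositol phosphatase, differed by 0.88 (SE 0.21, adjusted p = 0.708), KATNAL1, of a family that severs microtubules, by 0.81 (SE 0.17, adjusted p = 0.621), and APH1A, a subunit of gamma-secretase, by 0.71 (SE 0.18, adjusted p = 0.772). In each of these 6 genes all large values lay above all medium values. KATNAL1 had 2 dimmer probes, which differed by 0.37 and -0.29, so its probes do not share a direction.

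**Figure D2:**
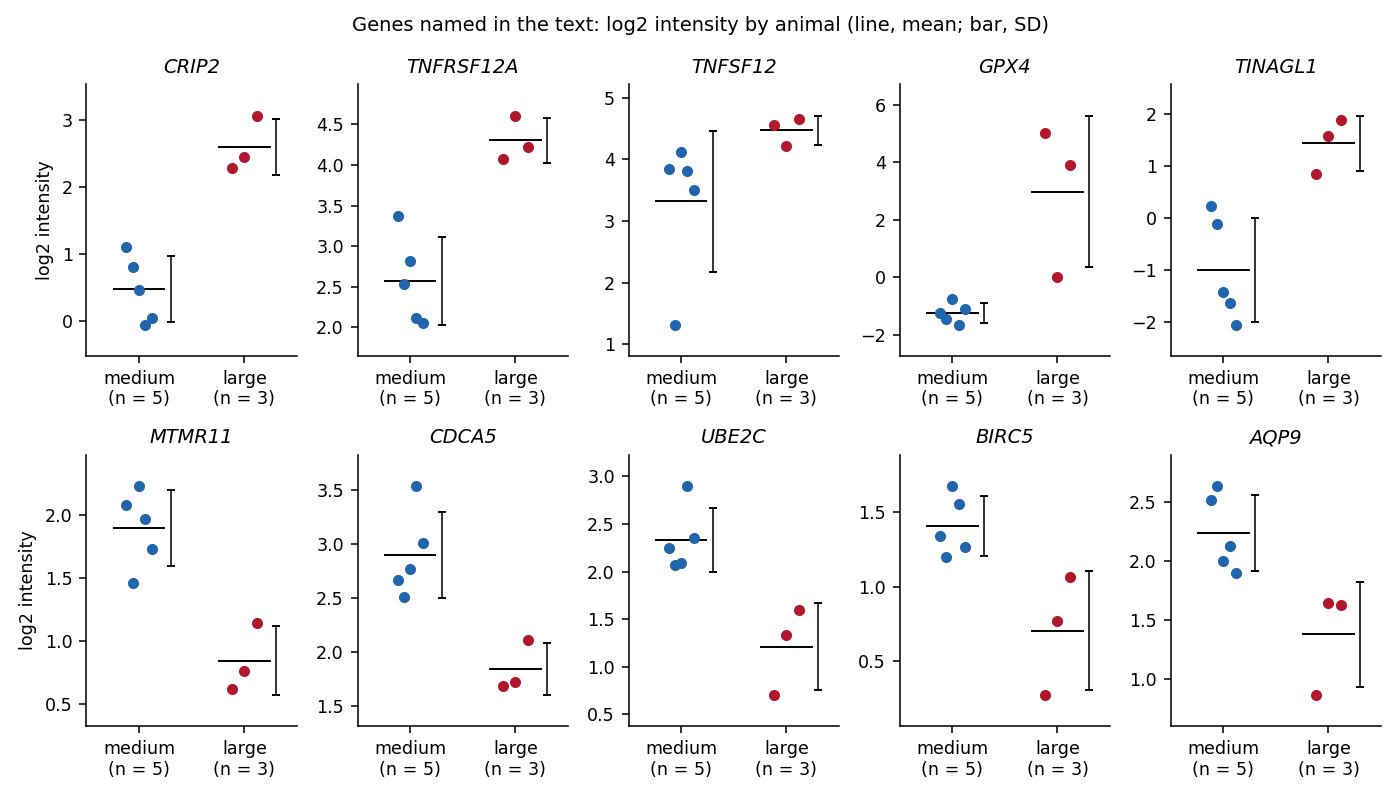
Log2 intensity of 10 genes in each artery, blue for the 5 medium and red for the 3 large plaques, with the group mean as a line and the SD as a bar; each panel has its own vertical axis. The groups are apart in all 10 panels, GPX4 is at 0.01 in large replicate 2, and TNFSF12 is at 1.32 in medium replicate 2.

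Genes low in the large plaques included several of cell division. MTMR11, a myotubularin-related protein, had the smallest p among the brighter genes that were lower in large plaques and read 0.62, 0.76 and 1.14 in the large plaque arteries and 2.08, 1.46, 2.23, 1.97 and 1.73 in the medium plaque arteries. All large values lay below all medium values, with a mean difference of -1.05 log2 units (95% interval -1.53 to -0.58, adjusted p = 0.621). CDCA5 (sororin), which holds sister chromatids together, read 1.68, 1.72 and 2.11 in large and 2.67, 2.51, 2.77, 3.54 and 3.01 in medium, and differed by -1.06 (SE 0.26, adjusted p = 0.716). UBE2C, the ubiquitin enzyme of the anaphase-promoting complex, read 0.70, 1.34 and 1.60 in large and 2.24, 2.07, 2.09, 2.90 and 2.36 in medium, and differed by -1.12 (SE 0.30, adjusted p = 0.793). Medium replicate 4 was the highest artery for both. PCLAF, a partner of the replication clamp, read -2.83, -1.47 and -2.12 in large and -0.61, -0.57, -1.03, -0.14 and -0.93 in medium, with a difference of -1.48 (SE 0.33, adjusted p = 0.658). Against small plaques, which share arrays with this comparison, MTMR11 was higher in medium by 1.91 (adjusted p = 0.000504) and in large by 0.86 (adjusted p = 0.0896). The same values for CDCA5 were 2.58 (adjusted p = 0.000345) and 1.52 (adjusted p = 0.0208), and for UBE2C 2.33 (adjusted p = 0.00125) and 1.21 (adjusted p = 0.0864).

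The remaining genes low in large plaques were of other kinds. VSIR (VISTA), a checkpoint receptor of immune cells, read 0.04, 0.41 and 0.55 in large and 0.84, 1.07, 1.30, 1.15 and 1.08 in medium, and differed by -0.75 (SE 0.19, adjusted p = 0.764). AQP9, a channel for water and glycerol, differed by -0.86 (SE 0.24, adjusted p = 0.793), ETV5, a transcription factor of the ETS family, by -0.64 (SE 0.16, adjusted p = 0.764), and TBC1D7, a subunit of the TSC complex that restrains mTOR, by -0.76 (SE 0.21, adjusted p = 0.793). ELAVL4, a neuronal RNA-binding protein, differed by -1.06 (SE 0.29, adjusted p = 0.793), ZRANB1, a deubiquitinase, by -0.71 (SE 0.19, adjusted p = 0.793), and WDR91, a protein of endosomes, by -0.87 (SE 0.22, adjusted p = 0.79). The second probe for WDR91 differed by -0.07. NOD2, a sensor of bacterial wall fragments, read -1.96, -3.17 and -1.46 in large and -0.72, -0.58, -0.78, -0.52 and -1.30 in medium, where large replicate 2 sits at the floor. ZNF750, an epithelial transcription factor, read 0.98, 3.69 and 3.46 in large and 4.27, 3.70, 4.22, 4.27 and 4.25 in medium, so that large replicate 1 makes most of its difference of -1.43 (SE 0.51, adjusted p = 0.953). Of 2 long noncoding RNAs, LINC01619 differed by -1.38 (SE 0.28, adjusted p = 0.561) and LINC02693 by -1.60 (SE 0.42, adjusted p = 0.793); a brighter probe for the latter differed by -0.21.

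Among 37 gene lists, 10 of cell type markers and 27 of functions, 526 of the 607 listed genes were measured. The median difference of a list ran from -0.26 to 0.33, against -0.02 over all genes, and 29 of the 37 medians lay within 0.2 of 0. No list held a called gene. The median kept its sign under all 24 alternatives for 13 lists and turned under 1 or more for the other 24. The level of a list in an artery, the mean of its members after each was centred over the 8 arteries, did not overlap between the groups for 5 of 37 lists. These 5 were 13.5% of the lists. A level averaged over many genes cannot be set against the share of single genes, and the count was not tested. The lists are therefore named as description only. Immediate early genes, the TWEAK receptor pathway, proteoglycans with elastic fibre, and calcification genes were higher in all 3 large arteries, and interferon response genes were lower. The TWEAK list was chosen for the small p of its receptor, and the calcification levels were barely apart, at 0.046 in the lowest large and 0.044 in the highest medium artery.

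**Figure D3:**
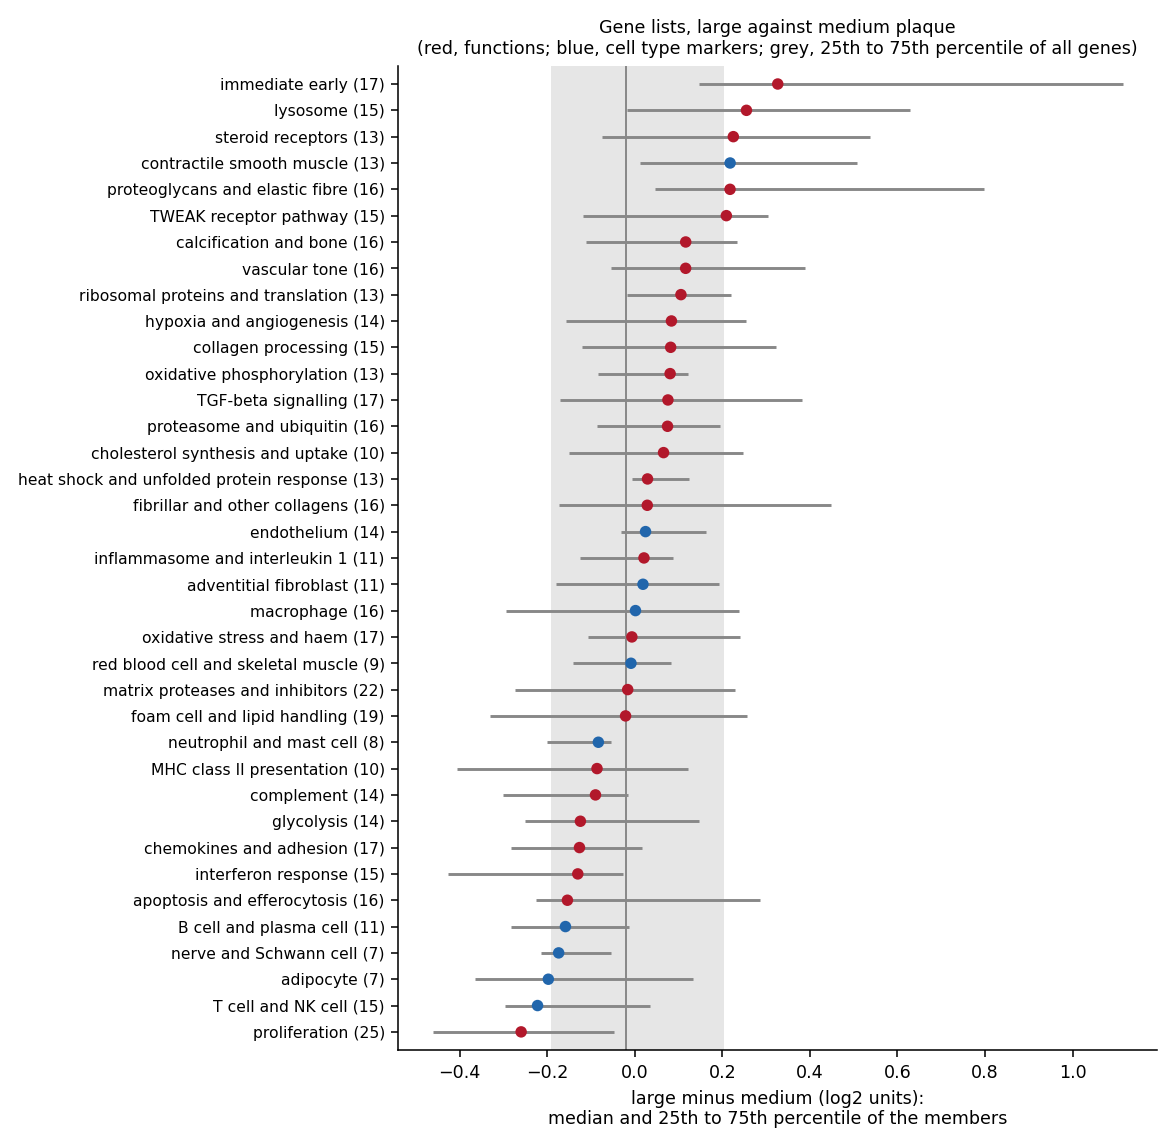
For each gene list, the point is the median difference of its measured members (number in brackets) in log2 units and the bar spans their 25th to 75th percentile; red marks functions and blue cell type markers, and the grey band is the same span over all 18080 genes. Immediate early genes are at the top at 0.33 and proliferation genes at the bottom at -0.26, and most points fall within the band.

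Immediate early genes are transcribed within minutes of a stimulus and code mostly for transcription factors and feedback inhibitors. Of 17 measured members 15 differed upward, with a median of 0.33, and 4 were higher at an unadjusted p under 0.05, where 2.76% of all genes were, with none lower. KLF2, a transcription factor that shear stress raises in endothelium, read 3.19, 1.85 and 2.15 in the large plaque arteries and 1.34, 0.93, 0.67, -0.53 and 0.23 in the medium plaque arteries. Its large values all lay above its medium values, with a mean difference of 1.87 log2 units (95% interval 0.67 to 3.07, adjusted p = 0.829). FOS read 4.43, 3.12 and 3.37 in large and 3.21, 2.16, 1.78, 1.14 and 2.62 in medium, and JUN, its partner in the AP-1 factor, read 0.13, -1.09 and -0.48 in large and -1.05, -1.32, -1.79, -1.39 and -2.98 in medium. In both genes large replicate 1 was the highest artery and medium replicate 1 overlapped the large group. FOS differed by 1.46 (SE 0.58, adjusted p = 0.953), JUN by 1.23 (SE 0.43, adjusted p = 0.951) and DUSP1, a phosphatase that switches off MAP kinases, by 1.22 (SE 0.40, adjusted p = 0.885). EGR1 differed by 0.16 (95% interval -0.24 to 0.56), ZFP36, which destabilizes cytokine mRNAs, by 0.47 (95% interval -0.26 to 1.20), and KLF4, a regulator of smooth muscle phenotype, by 0.48 (95% interval -0.71 to 1.66). The list level was 0.66, 0.10 and 0.24 in large and between -0.34 and -0.08 in medium arteries. Without large replicate 1 the median of the list was 0.20, the lowest of 24 alternatives, and without large replicate 2 it was 0.48.

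Proliferation genes lay on the other side. Of 25 measured members 21 differed downward, with a median of -0.26, and 5 were lower at an unadjusted p under 0.05, where 2.27% of all genes were, with none higher. The groups did not overlap for 5 members, each lower in large plaques, where 3.26% of all genes were lower without overlap. These included CDCA5 and UBE2C, given above, and BIRC5 (survivin), a protein of the chromosomal passenger complex, which read 0.27, 0.77 and 1.06 in the large plaque arteries and 1.34, 1.20, 1.68, 1.55 and 1.26 in the medium plaque arteries. Its difference was -0.70 log2 units (95% interval -1.19 to -0.22, adjusted p = 0.885). CDCA5 and UBE2C had already been named for their small p, so the counts of this list are not separate from those results. TOP2A, the topoisomerase of dividing cells, read 0.53, -0.11 and 0.17 in large and 1.30, 0.61, 0.23, 0.41 and 0.20 in medium, and the groups overlapped, with medium replicate 1 the highest. MKI67, the usual marker of cycling cells, differed by -0.05 (95% interval -0.45 to 0.35), and the interval of PLK1, a mitotic kinase, was -0.43 to 0.43. Both markers were bounded within 2-fold, so members of the list differed in how they lay. The list level was -0.29, -0.23 and -0.09 in large plaques and ran from -0.21 to 0.51 in medium ones, so that the groups overlapped at medium replicate 3. The median stayed below 0 in all 24 alternatives, between -0.38 and -0.16.

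**Figure D4:**
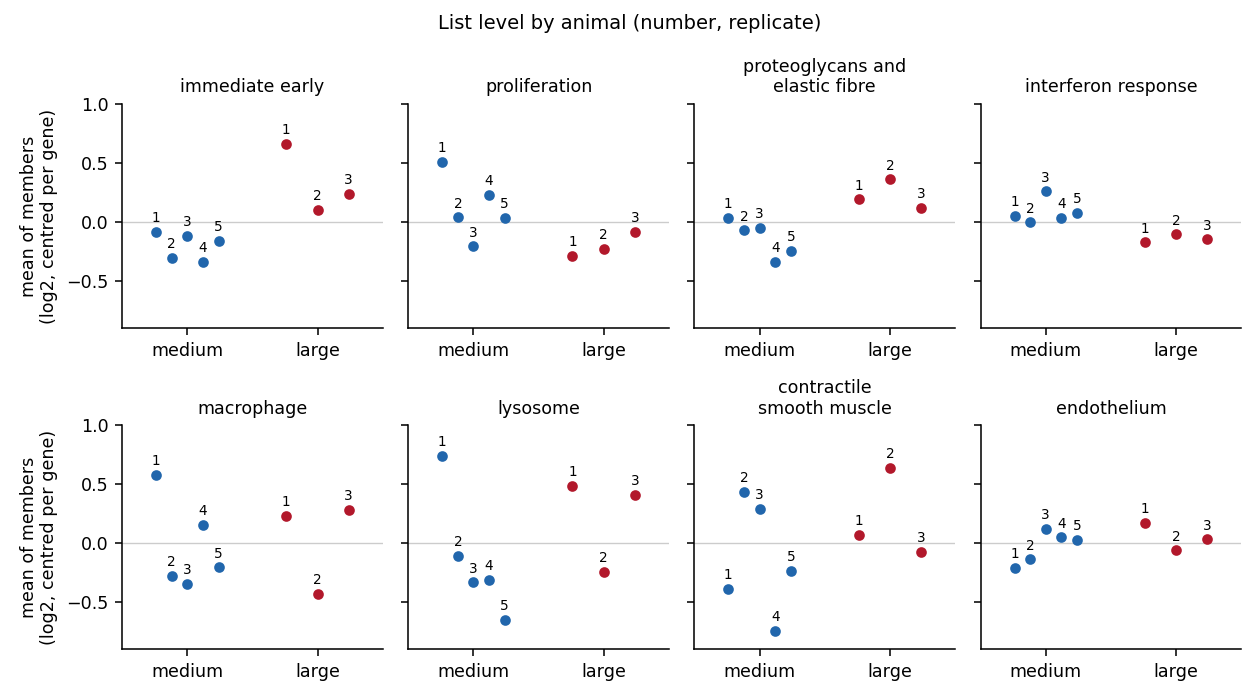
Level of 8 gene lists in each artery, as the mean of the members in log2 units after each gene was centred over the 8 arteries; blue points are medium and red points large plaques, and the number beside a point is the replicate. Immediate early and proteoglycan genes lie higher and interferon genes lower in all 3 large arteries, while macrophage, lysosome, smooth muscle and endothelial levels overlap.

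The TWEAK receptor pathway was described because its receptor was among the genes of smallest p. The ligand TNFSF12 (TWEAK) read 4.55, 4.21 and 4.66 in the large plaque arteries and 3.85, 1.32, 4.12, 3.82 and 3.50 in the medium plaque arteries. All large values lay above all medium values, with medium replicate 2 far below the others, and the difference was 1.15 log2 units (95% interval -0.03 to 2.34, adjusted p = 0.962); without medium replicate 2 it was 0.65. RELB, a subunit of the NF-kB factor that TWEAK activates, read -0.76, -0.76 and -0.84 in large and -1.17, -1.86, -1.12, -1.63 and -1.51 in medium, a difference of 0.67 (SE 0.22, adjusted p = 0.885), and its groups did not overlap. NFKB2, the precursor of its partner subunit, lay the other way with no overlap, at 1.54, 1.49 and 1.72 in large and 1.77, 1.76, 2.08, 2.18 and 2.01 in medium, a difference of -0.38 (95% interval -1.20 to 0.44). NFKB1, another subunit of the family, differed by -0.29 (95% interval -0.70 to 0.12). RAC1, a GTPase of cell movement downstream of the receptor, differed by -0.08 (95% interval -0.45 to 0.30), though its dimmer probes did not share 1 direction. Over the 15 measured members the median was 0.21, with 9 upward and 9 bounded within 2-fold. At an unadjusted p under 0.05, 2 were higher, where 2.76% of all genes were, and none lower. One of those 2 was TNFRSF12A, for which the list was chosen. Among brighter probes alone the median was -0.08, so the list has no direction that holds for both bright and dim probes.

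Smooth muscle cells make up most of the artery wall, and their contractile proteins are lost when they enter a plaque. Of 13 measured markers 10 differed upward, with a median of 0.22. At an unadjusted p under 0.05, 2 were higher, where 2.76% of all genes were, and none lower. The median was 0.05 without large replicate 2 and 0.40 without large replicate 3. SMTN (smoothelin), a protein of contractile filaments, read 5.02, 5.41 and 4.58 in the large plaque arteries and 3.76, 4.60, 4.40, 2.25 and 2.89 in the medium plaque arteries. MYL9, the regulatory light chain of myosin, read 3.68, 3.79 and 2.67 in the large plaque arteries and 2.15, 3.31, 2.43, 0.58 and 0.78 in the medium plaque arteries. In both, medium replicates 4 and 5 were the lowest and medium replicates 2 and 3 reached or came near the large values, so the groups overlapped. SMTN differed by 1.42 (SE 0.51, adjusted p = 0.953) and MYL9 by 1.53 (SE 0.67, adjusted p = 0.962), while a dimmer probe for SMTN differed by -0.20. With the replicate number as a block the difference of SMTN was 0.94 and that of MYL9 0.93. TPM1 (tropomyosin), which lies along the actin filament, was the 1 marker whose groups did not overlap, and it was lower in large plaques, at 2.45, 3.13 and 3.20 against 3.33, 3.30, 3.74, 3.89 and 3.71 in medium ones. Its difference was -0.67 (95% interval -1.58 to 0.25), and its dimmer probe differed by 0.46. PLN, the regulator of the calcium pump, differed by 0.97 (95% interval -0.12 to 2.06). MYH11, the smooth muscle myosin, differed by 0.30 (95% interval -0.12 to 0.72) and ACTA2, smooth muscle actin, by 0.01 (95% interval -0.86 to 0.89), both bounded within 2-fold. The list level spread more within groups than between them, from -0.74 to 0.43 in medium and from -0.07 to 0.64 in large arteries. In whole tissue, fewer cells of a type and less RNA per cell cannot be told apart, here and for every cell type below.

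Of 16 measured macrophage markers 8 differed upward and 8 downward with a median of 0.0018, and none lay at an unadjusted p under 0.05. The median depended on which arteries entered, at -0.25 without large replicate 1 and 0.30 without large replicate 2. CD68, a glycoprotein of macrophage endosomes, read 5.12, 5.06 and 4.83 in the large plaque arteries and 6.06, 3.75, 4.61, 5.22 and 6.48 in the medium plaque arteries. The medium arteries alone spanned 3.75 to 6.48, more than the whole range of the large ones, and the difference was -0.22 (95% interval -1.28 to 0.84). CD163, the scavenger receptor for haemoglobin, differed by -0.31 (95% interval -1.17 to 0.55), LYZ (lysozyme) by 0.43 (95% interval -0.82 to 1.68) and CSF1R, the receptor for macrophage growth factor, by -0.46 (95% interval -1.32 to 0.41). TYROBP, the adaptor of myeloid receptors, differed by -0.04 (95% interval -0.73 to 0.65) and was bounded within 2-fold. CD14, the coreceptor for lipopolysaccharide, read 2.16, 1.17 and 1.91 in large and 2.54, 1.54, 0.03, 0.13 and -0.18 in medium, with medium replicates 1 and 2 at the large values and the other 3 well below. Only 5 of the 16 were bounded within 2-fold (31.2%), so this list was measured loosely rather than shown to be level.

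Foam cell genes handle the lipid that macrophages take up. Their median was -0.02 over 19 measured members, and 4 were bounded within 2-fold (21.1%), the lowest share of the 37 lists. At an unadjusted p under 0.05, 1 was lower, where 2.27% of all genes were, and none higher. APOE was listed but had no probe of 1 symbol with values on every array. A probe shared by APOE and HMGA1 differed by 3.38 (SE 0.66, adjusted p = 0.529) with no overlap of the groups. It cannot be assigned to either gene and is not counted in the list. SPP1 (osteopontin), a secreted protein of plaque macrophages, read -2.25, 0.27 and -0.09 in the large plaque arteries and 2.30, 1.28, -1.19, 0.80 and 1.10 in the medium plaque arteries. Large replicate 1 and medium replicate 3 were the lowest, the groups overlapped, and the difference was -1.55 log2 units (95% interval -3.08 to -0.01, adjusted p = 0.962). Without large replicate 1 the difference of SPP1 was -0.76, and its p was under 0.05 in 8 of 22 alternatives. FABP5, a carrier of fatty acids, differed by -0.38 (95% interval -1.20 to 0.43), LGALS3, a lectin of activated macrophages, by 0.38 (95% interval -0.32 to 1.08), and NPC2, which moves cholesterol out of the lysosome, by -0.30 (95% interval -0.86 to 0.27). The 10 measured genes of cholesterol synthesis and uptake had a median of 0.07, 8 were bounded within 2-fold (80%) and none lay at an unadjusted p under 0.05.

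Lysosomal genes had a median of 0.26, with 11 of 15 upward, and one of 0.16 without large replicate 1. At an unadjusted p under 0.05, 1 was higher, where 2.76% of all genes were, and none lower. CTSD, the aspartic protease cathepsin D, read 4.75, 3.84 and 5.08 in the large plaque arteries and 4.52, 2.66, 2.69, 2.24 and 1.69 in the medium plaque arteries. Medium replicate 1 lay among the large arteries and the other 4 medium arteries lay below all of them, and the difference was 1.79 log2 units (95% interval 0.59 to 3.0, adjusted p = 0.856). CTSS, a cathepsin of antigen-presenting cells, differed by 0.73 (95% interval -0.41 to 1.86) and CTSL by -0.28 (95% interval -0.80 to 0.24), so that the cathepsins did not share 1 direction. CTSZ differed by 0.26 (95% interval -0.06 to 0.57) with no overlap of the groups, and its dimmer probe by -0.41. GLA, which removes galactose from glycolipids, read 3.14, 2.99 and 3.19 in large and 3.81, 3.37, 3.32, 3.99 and 3.39 in medium, lower in all 3 large arteries with a difference of -0.47 (95% interval -1.02 to 0.08). The list level was 0.49, -0.24 and 0.41 in large and between -0.65 and 0.74 in medium arteries. The macrophage list level was 0.23, -0.43 and 0.28 in large and 0.58, -0.27, -0.35, 0.16 and -0.21 in medium arteries; its part in the lysosomal values was not tested.

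Antigen presentation and lymphocyte markers overlapped between the groups. MHC class II genes had a median of -0.09 over 10 members with none at an unadjusted p under 0.05. HLA-DRA read 1.35, 1.01 and 1.90 in large and 2.03, 1.76, 2.02, 1.61 and 2.31 in medium, a difference of -0.53 (95% interval -1.16 to 0.10), with an opposite sign at its dimmer probe, whereas HLA-DQB1 differed by 0.82 (95% interval -0.10 to 1.75) and HLA-DMA, which loads peptides, by -0.25 (95% interval -0.89 to 0.39). T and NK cell markers had a median of -0.22 over 15 members, 10 of them downward and none at an unadjusted p under 0.05. CD3D, of the T cell receptor complex, differed by -0.41 (95% interval -1.35 to 0.53), the adhesion receptor CD2 by -0.45 (95% interval -1.34 to 0.44) and GZMK, a granzyme, by 0.35 (95% interval -0.90 to 1.60). Without medium replicate 1 the median of this list was -0.0011. B and plasma cell markers had a median of -0.16 over 11 members. JCHAIN, which joins secreted antibodies, read 5.77, 3.06 and 2.92 in large and 4.36, 3.56, 2.40, 1.69 and 2.64 in medium, with large replicate 1 above every other artery, and CD79A, of the B cell receptor, differed by 0.11 (95% interval -0.24 to 0.47). MPO, a peroxidase of neutrophil granules, read -1.29, -1.18 and -0.55 in large and -2.24, -1.74, -1.76, -2.0 and -2.32 in medium; the groups did not overlap, and the difference was 1.01 (SE 0.24, adjusted p = 0.658) at a dim signal.

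Interferon response genes were the 1 list whose level was lower in all 3 large arteries, at -0.17, -0.10 and -0.15 against -0.0038 to 0.26 in medium arteries. IFIT1, which binds viral RNA, read 2.67, 3.39 and 3.0 in the large plaque arteries and 3.54, 4.20, 3.90, 3.65 and 3.83 in the medium plaque arteries. IFI44, another gene that interferon induces, read 3.53, 3.46 and 3.74 in large and 4.76, 4.98, 3.83, 3.77 and 3.88 in medium. In both genes the groups did not overlap, with a difference of -0.81 (95% interval -1.66 to 0.05) for IFIT1 and -0.67 (95% interval -1.79 to 0.45) for IFI44, where medium replicates 1 and 2 stood above the other 3. GBP1, a GTPase induced by interferon gamma, differed by -0.10 (95% interval -1.14 to 0.95) and overlapped. Of 15 members 11 differed downward with a median of -0.13, none lay at an unadjusted p under 0.05 and 8 were bounded within 2-fold. The groups did not overlap for 2 members, both lower, where 3.26% of all genes were lower without overlap.

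Chemokines and adhesion molecules, which draw leukocytes into the wall, had a median of -0.13 over 17 members. At an unadjusted p under 0.05, 1 was lower, where 2.27% of all genes were. CCL2, which attracts monocytes, read 2.05, 1.78 and 2.43 in the large plaque arteries and 3.20, 2.68, 2.42, 3.24 and 2.70 in the medium plaque arteries. Medium replicate 3 lay just under the highest large value and the other medium arteries above it, with a difference of -0.76 log2 units (95% interval -1.29 to -0.23, adjusted p = 0.885). CXCL12 differed by -0.69 (95% interval -1.45 to 0.06), CXCL8, which attracts neutrophils, by 0.02 (95% interval -0.91 to 0.95) and ICAM1, the adhesion molecule, by -0.04 (95% interval -0.39 to 0.32), which was bounded within 2-fold. Against small plaques, CCL2 was higher in medium by 2.27 (adjusted p = 0.00041) and in large by 1.51 (adjusted p = 0.0163), and CXCL8 by 3.81 (adjusted p = 0.00048) and 3.83 (adjusted p = 0.00202), comparisons that share arrays with this one. Complement genes had a median of -0.09 with 11 of 14 downward and none at an unadjusted p under 0.05. CFB, of the alternative pathway, differed by -0.66 (95% interval -2.11 to 0.79) and CD55, which shields host cells, by -0.43 (95% interval -1.03 to 0.17). Inflammasome and interleukin 1 genes had a median of 0.02 over 11 members, and the sign stayed the same in 10 of 24 alternatives. PYCARD (ASC), the adaptor that assembles inflammasomes, was the 1 member at an unadjusted p under 0.05, where 5.03% of all genes were. It read -3.17, -2.43 and -2.44 in large and -1.85, -1.62, -1.98, -2.28 and -1.91 in medium, where large replicate 1 sits at the floor, and differed by -0.75 (SE 0.31, adjusted p = 0.962) at a dim signal, or -0.51 without large replicate 1.

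Genes of cell death, efferocytosis and redox defence were split in direction. GAS6, a bridge between dying cells and phagocytes, read 4.47, 4.11 and 3.83 in the large plaque arteries and 3.56, 3.28, 3.07, 1.60 and 2.05 in the medium plaque arteries. Its large values lay above its medium values, with a mean difference of 1.43 log2 units (95% interval 0.19 to 2.66, adjusted p = 0.953), and medium replicates 4 and 5 were the lowest. FAS, the death receptor, differed by -0.63 (SE 0.28, adjusted p = 0.962) with overlap, and by -0.32 without large replicate 1. BAX, which opens the mitochondrial membrane in cell death, read 3.70, 3.65 and 3.57 in large and 3.74, 3.84, 4.17, 4.38 and 3.90 in medium, lower in all 3 large arteries with a difference of -0.36 (95% interval -0.89 to 0.16), while its 2 dimmer probes differed by 0.06 and 0.19. Their list had a median of -0.15 over 16 members. At an unadjusted p under 0.05, 1 was higher and 1 lower, where 2.76% and 2.27% of all genes were. The groups did not overlap for 1 gene higher and 1 lower, where 5.74% of all genes did not overlap. CYBA, a subunit of NADPH oxidase, read 2.03, 2.11 and 2.99 in large and 1.86, 0.78, 0.76, 0.41 and 0.76 in medium, apart by 1.47 (SE 0.58, adjusted p = 0.953), with medium replicate 1 nearest to the large arteries. SLC40A1 (ferroportin), which exports iron, differed by 1.01 (95% interval -0.02 to 2.03) and its dimmer probe by -0.20. SOD1 differed by 0.30 (95% interval -0.24 to 0.84) and GPX1, a peroxidase related to GPX4, by 0.24 (95% interval -0.41 to 0.89), both bounded within 2-fold. The median of the 17 oxidative stress and haem genes was -0.0065, and the sign stayed the same in 14 of 24 alternatives. CYBA was the 1 member without overlap, where 5.74% of all genes did not overlap.

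Matrix genes are described by class, and the difference between classes was not tested. Proteoglycans and elastic fibre genes had a median of 0.22, with 13 of 16 upward. At an unadjusted p under 0.05, 2 were higher, where 2.76% of all genes were. The level of this list was 0.19, 0.36 and 0.12 in large and -0.34 to 0.03 in medium arteries. BGN (biglycan), which binds lipoproteins, read -0.24, -0.46 and -0.44 in the large plaque arteries and -1.46, -1.10, -1.07, -0.91 and -1.38 in the medium plaque arteries. The groups did not overlap and the difference was 0.80 log2 units (95% interval 0.03 to 1.57, adjusted p = 0.962). SDC4, a syndecan of the cell surface, differed by 0.52 (SE 0.24, adjusted p = 0.962) and HAPLN1, which links hyaluronan to proteoglycans, by 0.94 (95% interval -0.03 to 1.90), and both overlapped. DCN (decorin), counted here as a fibroblast marker, differed by 0.27 (95% interval -0.59 to 1.12) and its dimmer probes took both signs. Collagens had a median of 0.03 over 16 members, which was -0.03 with quantile normalization, -0.09 without large replicate 1 and 0.30 without large replicate 3. COL6A2 read 0.94, 0.31 and 0.59 in large and 0.20, -0.94, -0.29, -1.45 and -0.86 in medium, with no overlap and a difference of 1.28 (SE 0.42, adjusted p = 0.894). The fibrillar COL3A1 differed by -0.36 (95% interval -0.86 to 0.14), COL1A1 by -0.04 (95% interval -0.52 to 0.43) and COL4A1, of basement membranes, by 0.10 (95% interval -0.42 to 0.62), all bounded within 2-fold, as were only 5 of the 16 collagens (31.2%). A brighter COL1A1 probe that lacked a value on 1 or more arrays differed by 0.0085. LOXL2, which crosslinks collagen, read 1.96, 2.27 and 2.30 in large and 2.71, 2.70, 3.02, 2.92 and 2.84 in medium, lower in all large arteries by a difference of -0.66 (SE 0.24, adjusted p = 0.953), while SERPINH1, the collagen chaperone, differed by -0.16 (95% interval -0.78 to 0.47).

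Proteases, calcification and TGF-beta genes followed no single direction. Among 22 proteases and inhibitors the median was -0.02. At an unadjusted p under 0.05, 1 was higher and 1 lower, where 2.76% and 2.27% of all genes were. MMP12, the elastase of macrophages, read 0.41, -0.23 and -0.78 in large and -0.48, -0.70, -2.01, -1.56 and -1.86 in medium, and differed by 1.12 (SE 0.38, adjusted p = 0.907) with overlap at medium replicates 1 and 2. TIMP1, an inhibitor of these proteases, differed by -0.53 (SE 0.24, adjusted p = 0.962), PLAU (urokinase) by -0.49 (95% interval -1.04 to 0.05) and MMP9, a gelatinase, by 0.11 (95% interval -0.35 to 0.58). Calcification and bone genes had a median of 0.12 over 16 members, and their level was 0.05 to 0.07 in large and -0.21 to 0.04 in medium arteries, a gap smaller than the spread of the medium arteries. ANKH, which exports the mineral inhibitor pyrophosphate, read 0.64, 1.12 and 1.11 in large and 1.58, 1.40, 1.98, 2.19 and 1.71 in medium, lower in all large arteries by a difference of -0.82 (SE 0.32, adjusted p = 0.953). BMP2, an inducer of bone genes, differed by 0.71 (SE 0.32, adjusted p = 0.962), MGP, an inhibitor of calcification, by 0.30 (95% interval -0.14 to 0.74), and CTSK, a collagen-cleaving cathepsin, by 0.20 (95% interval -0.37 to 0.77). With quantile normalization the difference of MGP was 0.06. TGFB1, the cytokine that drives matrix synthesis, read 2.46, 2.91 and 3.17 in the large plaque arteries and 2.51, 1.42, 2.02, 0.56 and 0.45 in the medium plaque arteries. Medium replicate 1 lay just above the lowest large artery, medium replicates 4 and 5 were lowest, and the difference was 1.46 log2 units (95% interval 0.51 to 2.40, adjusted p = 0.829). SMAD6, a feedback inhibitor of the pathway, read 2.09, 2.54 and 2.47 in large and 1.72, 1.79, 1.96, 1.26 and 0.85 in medium and was apart by 0.85 (SE 0.31, adjusted p = 0.953), or 0.50 with the replicate block. LTBP2, a protein of elastic microfibrils, differed by 0.74 (95% interval -0.08 to 1.56). The 17 TGF-beta genes had a median of 0.08, with 2 higher at an unadjusted p under 0.05, where 2.76% of all genes were.

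The share of bounded genes differed among housekeeping functions, beside 64.2% of all and 76.1% of brighter genes. Oxidative phosphorylation genes had a median of 0.08 over 13 members with 10 bounded within 2-fold (76.9%); the interval of ATP5F1B, of the ATP synthase, was -0.52 to 0.52, and COX4I1, of cytochrome oxidase, differed by 0.10 (95% interval -0.44 to 0.64). Heat shock and unfolded protein genes had a median of 0.03, 10 of 13 bounded (76.9%) and all 13 differences between -0.22 and 0.28. HSPA8, a constitutive chaperone, differed by 0.12 (95% interval -0.25 to 0.50), or -0.05 with quantile normalization, and HSPE1, of mitochondria, by -0.01 (95% interval -0.44 to 0.43); a dimmer HSPA8 probe differed by -0.03. Proteasome genes had a median of 0.07 with 10 of 16 bounded (62.5%). PSMB2, a catalytic subunit, differed by -0.14 (95% interval -0.60 to 0.31) and PSMA5, of the alpha ring, by 0.12 (95% interval -0.32 to 0.55), with the opposite sign at a second PSMA5 probe. With quantile normalization the difference of PSMA5 was 0.0032. None of these 3 lists held a gene at an unadjusted p under 0.05.

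Ribosomal and translation genes had a median of 0.11 over 13 members, which turned to -0.02 with quantile normalization, and 9 were bounded (69.2%). RPL11 read 8.77, 8.81 and 8.71 in the large plaque arteries and 8.64, 8.58, 8.66, 8.72 and 8.69 in the medium plaque arteries. The 8 arteries lay close together and the difference was 0.11 (95% interval -0.21 to 0.42), or -0.07 with quantile normalization. EEF1A1, the elongation factor, differed by 0.11 (95% interval -0.30 to 0.51), or -0.11 with quantile normalization, and the dimmest of its other 3 probes had the opposite sign. EIF4G1, the scaffold of cap binding, was the 1 member at an unadjusted p under 0.05, where 5.03% of all genes were. It was apart by 0.59 (SE 0.27, adjusted p = 0.962). Glycolysis genes had a median of -0.12 with 10 of 14 bounded (71.4%); ENO1 (enolase) differed by -0.29 (95% interval -0.88 to 0.29) and LDHA by -0.12 (95% interval -0.91 to 0.67). GAPDH, often used as a reference gene, read 6.02, 6.51 and 6.09 in large and 6.62, 6.0, 5.31, 4.96 and 4.46 in medium, a spread of 4.46 to 6.62 within the medium arteries alone, and differed by 0.74 (95% interval -0.95 to 2.43).

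**Figure D5:**
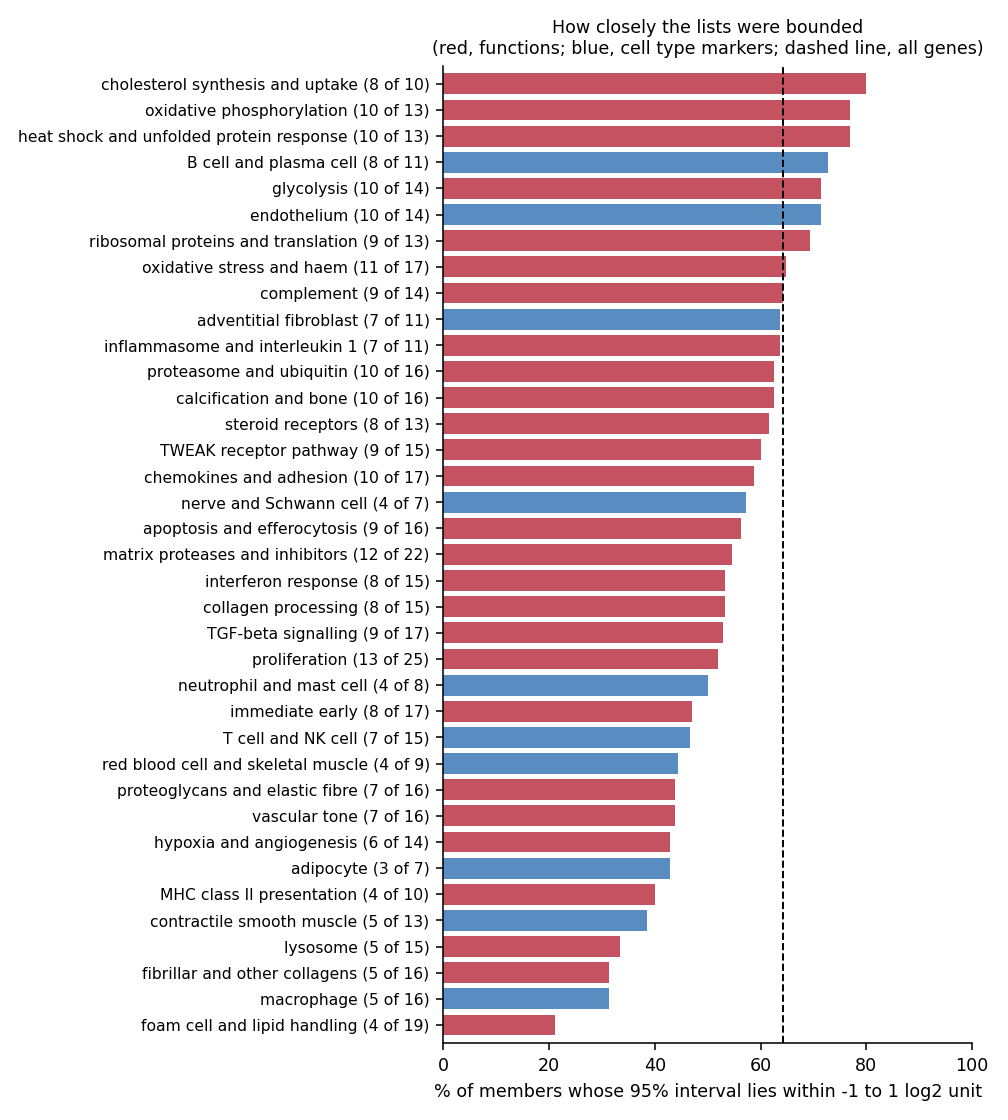
For each gene list, the bar gives the percent of measured members whose 95% interval of the difference lies between -1 and 1 log2 unit, with counts in brackets; red marks functions, blue marks cell type markers and the dashed line is the 64.2% of all genes. Cholesterol synthesis (80%), oxidative phosphorylation and heat shock genes (76.9% each) are at the top, and macrophage (31.2%) and foam cell genes (21.1%) at the bottom.

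Endothelial markers had differences on both sides of 0, with a share of bounded genes between that of all genes and that of brighter genes. Of 14 members 10 were bounded (71.4%), the median was 0.02, no member lay at an unadjusted p under 0.05 and no member kept the groups apart. PECAM1, the junction protein, read 4.83, 4.40 and 4.54 in the large plaque arteries and 4.61, 4.31, 4.60, 4.74 and 4.51 in the medium plaque arteries, and differed by 0.04 (95% interval -0.35 to 0.42). ESAM, another junction protein, differed by 0.36 (95% interval -0.30 to 1.03), and VWF, the clotting glycoprotein, by -0.15 (95% interval -0.52 to 0.21), where a dimmer probe had the opposite sign. Hypoxia and angiogenesis genes had a median of 0.08 over 14 members and 6 were bounded. ANGPTL4, an inhibitor of lipoprotein lipase, read -0.51, -0.97 and -1.32 in large and -0.95, -1.80, -3.17, -2.25 and -2.93 in medium, where medium replicate 3 sits at the floor, and differed by 1.29 (SE 0.43, adjusted p = 0.91) with overlap. EPAS1, the hypoxia factor HIF-2 alpha, differed by -0.59 (SE 0.27, adjusted p = 0.962), or -0.35 without large replicate 1.

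Steroid receptor genes were examined because the ovaries had been removed in both groups. ESR1, oestrogen receptor alpha, read 4.40, 4.64 and 4.19 in the large plaque arteries and 3.74, 4.58, 4.47, 3.31 and 4.53 in the medium plaque arteries. The groups overlapped and the difference was 0.29 (95% interval -0.36 to 0.94), bounded within 2-fold. PGR, the progesterone receptor and a target of oestrogen, differed by 0.54 (95% interval -0.23 to 1.31), and by 0.07 without large replicate 2 and 0.83 without large replicate 3. HSD17B2, which inactivates oestradiol, was listed at the floor in all 5 medium arteries and read -2.30, -2.0 and -2.61 in the large ones, so its difference of 0.87 (SE 0.27, adjusted p = 0.857) depends on the floor. The list median was 0.23 over 13 members, and -0.01 without large replicate 1 and 0.02 over brighter probes. Among 16 genes of vascular tone the median was 0.12. AGTR1, the angiotensin receptor, read 1.44, 2.03 and 1.49 in large and 1.07, 1.39, 1.39, 0.92 and 0.87 in medium, and the groups lay just apart, with a difference of 0.52 (95% interval -0.16 to 1.21). ACE, which makes angiotensin II, differed by 0.81 (SE 0.34, adjusted p = 0.962), or 0.38 without large replicate 3, and PTGIS, which makes prostacyclin, by 0.17 (95% interval -0.58 to 0.92).

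For 4 genes chosen because they differed strongly from small plaques, the values of all comparisons are set side by side. GDF15, a stress cytokine, read 3.87, 3.74 and 4.70 in the large plaque arteries and 4.38, 3.26, 4.52, 4.72 and 3.68 in the medium plaque arteries. It was higher than in small plaques by 5.47 (adjusted p = 0.000128) in medium and by 5.46 (adjusted p = 0.00092) in large arteries, and large minus medium was -0.01 (95% interval -1.01 to 0.99). MLPH, a linker of vesicles to myosin, read 6.29, 5.02 and 6.25 in large and 6.28, 4.69, 6.01, 6.21 and 5.85 in medium, with 4.94 (adjusted p = 0.000128) and 4.99 (adjusted p = 0.00092) against small and 0.05 (95% interval -0.85 to 0.95) between large and medium; its second probe differed by -0.12. LAPTM5, a lysosomal protein of blood cells, read 3.97, 1.64 and 2.99 in large and 3.18, 2.82, 2.38, 2.85 and 2.53 in medium, a spread in the large arteries alone of 1.64 to 3.97. Its values against small were 4.83 (adjusted p = 0.000686) and 4.95 (adjusted p = 0.00284), and large minus medium was 0.11 (95% interval -1.15 to 1.38). MATK, a kinase of haematopoietic cells, read 3.60, 3.30 and 3.86 in large and 3.76, 2.40, 1.66, 2.99 and 2.12 in medium, with 4.91 (adjusted p = 0.000387) and 5.91 (adjusted p = 0.00092) against small and 1.0 (95% interval -0.12 to 2.12) between large and medium. The 3 differences of each gene share the same arrays, so they are not independent of one another.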

How the data were processed

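Transcript levels were measured in 12 iliac arteries on human whole genome arrays with 1 dye, and 3 large were compared with 5 medium plaque arteries. The deposited table holds linear intensity values per probe, which the authors had scaled so that each array's median lies near 1, as the values show; background had been subtracted, since some values are negative. The sources used here name neither the image software nor the scaling step. A floor of 0.111, the 5th percentile of positive values, replaced lower ones (5.45% of values) before log2 was taken, so differences from a group at this floor are understated. Values set to the floor are equal, so the spread of such a group is understated too and its p can be too small. Of 54359 deposited probes 479 were empty on every array, and the 53877 with values in at least 2 arteries of each group were tested. Genes were named through GEO's annotation of the platform, whose symbols may be out of date: 23267 probes had 1 symbol, 900 several and 29710 none, and probes with several name no gene. A gene was given by its brightest probe with values on all 12 arrays, except that a gene named for its small p or large difference was given by the probe concerned.

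Each probe was fitted with limma 3.58.1 in R 4.3.3 (lmFit with 3 group means over all 12 arrays, then eBayes), with two-sided p-values adjusted by Benjamini-Hochberg over all probes and a threshold of 0.05. The fit was tested on simulated data with independent normal noise and no floor. That check therefore does not cover floored probes or probes that vary together across arrays. Depth does not apply to arrays; their number limits the precision. Named genes were the 10 each way of smallest p with a mean log2 intensity above 0, the 5 each way of largest difference at an unadjusted p under 0.05 with no overlap, in each list the 3 of smallest p and the 2 brightest, and a short panel. Of the genes this allowed, 136 are given. Those outside it were C6orf118, TRHR, TPM1, NFKB2, SLC66A1, the probe shared by APOE and HMGA1, and those without a name. They were chosen after their values were seen. The comparison, the lists and the panel were chosen with earlier results of these data known. Lists are described by counts and medians, with no test. Alternatives covered normalization, floor, dim and incomplete probes, variance model, array weights, arrays in the fit and a block for the replicate number. They also left out single animals, and together the 2 animals whose identity numbers lay apart from the others.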

Additional observations from a re-analysis of the deposited data

Results flagged for a closer look

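Each of the 136 genes and 37 list levels was checked for an artery that lay far from the other 4 of the medium group, by Dixon's ratio of the gap to the range at its 95% critical value. Chance alone gives such a value in about 1 in 20 groups, and the large group of 3 was too small to check. It was met by 8 genes and 2 lists. Medium replicate 1 was high for 3 genes: LYZ at 7.96 against 5.78 to 6.29 in the other medium arteries, CYBA at 1.86 against 0.41 to 0.78, and ADISSP at 0.64 against -0.70 to -0.31. In the same artery the level of the red blood cell and skeletal muscle list was low, at -0.38 against 0.08 to 0.18. Medium replicate 2 was low for 3 genes: ZNF750 at 3.70 against 4.22 to 4.27, TNFSF12 at 1.32 against 3.50 to 4.12, and MLPH at 4.69 against 5.85 to 6.28. Medium replicate 4 was low for MGP at 8.33 against 8.83 to 8.96 and for PSMA5 at 6.46 against 6.57 to 6.61. Medium replicate 5 was low for the calcification and bone list, at -0.21 against -0.02 to 0.04.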

How the results depend on the processing

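Over the alternatives 874 recomputed list medians moved by less than the spread between animals and 14 moved more. The count of called probes was 0 and became 1 at an adjusted p under 0.1, 1 with quantile normalization, 3 with array weights, 4 with only the large and medium arrays and 0 to 3 with each animal left out. C6orf118, at the floor in medium, was among the calls in most of these. With the floor at the 1st or the 10th percentile the count stayed 0. The smallest adjusted p in limma was then 0.567 or 0.432, against 0.0628 with the floor used here. Unadjusted counts were 1212 among brighter probes (552 higher, 660 lower) and 4771 with array weights (2435 and 2336). They were 4055 with only the large and medium arrays (2183 and 1872) and 3376 without small replicate 1. Medium replicate 5 and small replicate 4 had identity numbers apart from the others. Without both, the unadjusted count was 2305 (1375 higher, 930 lower) and 0 probes were called. Whether these 2 animals form another cohort is not stated. Quantile normalization gave 1373 higher and 1400 lower, and the non-overlapping counts 1152 and 1578. Non-overlapping probes among brighter ones numbered 1722 (681 higher, 1041 lower). Leaving out an animal gave 2945 to 8409 (1365 to 3737 higher, 1580 to 4672 lower), and that alternative was chosen after seeing the data. Groups of fewer animals overlap less often. The count was 8409 without large replicate 3, against 5256 without large replicate 1 and 5608 without large replicate 2. The reason for this difference was not tested. List medians moved to 0.0034 for proteasome genes with quantile normalization, and among brighter probes to -0.37 for adipocyte, -0.077 for TWEAK pathway and 0.018 for steroid receptor genes; the cause was not tested. With animals left out they ran from -0.12 to 0.16 for hypoxia, -0.013 to 0.34 for steroid receptor, -0.29 to -0.032 for adipocyte, -0.047 to 0.16 for proteasome, -0.012 to 0.15 for heat shock, -0.24 to -0.074 for interferon, -0.18 to 0.020 for apoptosis and 0.12 to 0.37 for proteoglycan genes.

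Replicate numbers were shared by the groups, but the deviations of same-numbered large and medium arteries correlated at 0.133, 0.140 and 0.0785 across probes, not all over 0.1, so the numbers were not taken as pairs; large replicate 3 correlated best with medium replicate 4, at 0.218. With the replicate block 0 probes were called, 2282 lay at an unadjusted p under 0.05, and the calcification median was -0.017. The difference of CRIP2 was 1.86 and that of TNFRSF12A 1.48 with this block, the smallest of their alternatives. Signal limits the dim probes, for which a difference from the floor is only partly measured.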

Other observations

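Marker lists of the other cell types a whole artery can hold showed no member called by limma between large and medium plaques. Adventitial fibroblast markers had a median difference of 0.02 over 11 measured members, with 7 bounded within 2-fold and the summed linear intensity at 376 to 644 in large and 238 to 647 in medium arteries. Adipocyte markers had a median of -0.20 over 7 members, with sums of 7.77 to 11.4 and 8.96 to 15.4. Nerve and Schwann cell markers had a median of -0.17 over 7 members, and red blood cell and skeletal muscle markers one of -0.01 over 9. Of these 9, 1 was lower at an unadjusted p under 0.05, where 2.27% of all genes were. Neutrophil and mast cell markers had a median of -0.08 over 8 members, where MPO differed upward and the other 7 downward. Genes of collagen processing had a median of 0.08 over 15 members. At an unadjusted p under 0.05, 1 was higher and 1 lower, where 2.76% and 2.27% of all genes were.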
